A study of Mus musculus with 12 samples.

Results

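The 10 genes that mark white and brown fat cells, namely Ucp1, Car3, Pck1, Cfd, Adipoq, Plin1, Fabp4, Cidea, Cidec and Pparg, were followed across RNA sequencing libraries of mouse hearts, where they give a reading of fat in or on the tissue. They were taken by symbol from a table of 24918 genes, in which each of the 10 had 1 row, and all 10 passed the filter on low values that 14721 genes passed. The 12 libraries came from hearts of untreated C57BL/6 mice aged 2 months, 3 in each of 4 groups: male cardioGRKO, male floxed, and the libraries labelled female cardioGRKO and female floxed. By the titles, cardioGRKO mice are GRloxP/loxP with 1 copy of αMHC-Cre, so that the promoter of the cardiac α-myosin heavy chain drives Cre in cardiomyocytes and deletes the glucocorticoid receptor there. Floxed mice are homozygous for GRloxP without Cre in the title, so an effect of Cre and one of the deletion cannot be told apart, and by this design fat cells of both genotypes keep the receptor gene. Since the submitters entered wild-type as the genotype of every sample, the titles alone define the groups. Whether each library is a separate animal is not stated, and p-values then measure only the spread between libraries, which may be technical. The design text asks what differs when cardiomyocytes lack the receptor, and the series title whether this depends on sex.

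White fat cells store triglyceride in 1 large droplet coated by perilipin 1, and release fatty acids and hormones such as adiponectin. Brown fat cells hold many small droplets and many mitochondria, and burn fuel for heat through uncoupling protein 1. Both kinds depend on PPARγ, a nuclear receptor that pairs with RXR and drives most genes of the mature fat cell. Fat borders the heart and great vessels in mice, and a dissected heart can carry some of it. Several of the genes are not private to fat: Fabp4 and Pparg are also expressed by endothelium, Car3 by skeletal muscle and Cidea by cardiac muscle. In such bulk RNA, fewer cells of a type and less RNA per cell cannot be told apart.

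Promoters of 3 genes are shown, Ucp1 and Plin1, which moved in the same directions, and Cfd, which did not follow them in males. RefSeq starts (build GRCm38.p6) were available for 7 of the 10 genes, Ucp1, Pck1, Cfd, Adipoq, Plin1, Cidec and Pparg, with 10 starts in all, each given from 250 bases before to 50 bases after the start. Car3, Fabp4 and Cidea had no entry in that table. Below are Ucp1 at chr8:83290098-83290397 (+ strand), Plin1 at chr7:79732727-79733026 (- strand) and Cfd at chr10:79890603-79890902 (+ strand), written 5′ to 3′ on the gene's strand. Capitals mark matches on either strand to the motifs searched.
Ucp1: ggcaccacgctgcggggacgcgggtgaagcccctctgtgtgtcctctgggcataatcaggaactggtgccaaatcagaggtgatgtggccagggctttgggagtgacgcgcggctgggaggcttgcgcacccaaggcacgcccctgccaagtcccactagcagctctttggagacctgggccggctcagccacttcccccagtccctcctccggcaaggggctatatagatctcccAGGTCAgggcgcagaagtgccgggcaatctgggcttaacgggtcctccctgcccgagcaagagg
Plin1: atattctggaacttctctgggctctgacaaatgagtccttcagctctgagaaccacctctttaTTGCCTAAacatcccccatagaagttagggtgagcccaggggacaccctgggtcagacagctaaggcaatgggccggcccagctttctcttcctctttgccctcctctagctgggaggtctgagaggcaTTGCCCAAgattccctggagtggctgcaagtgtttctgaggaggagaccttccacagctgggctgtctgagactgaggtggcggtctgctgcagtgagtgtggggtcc
Cfd: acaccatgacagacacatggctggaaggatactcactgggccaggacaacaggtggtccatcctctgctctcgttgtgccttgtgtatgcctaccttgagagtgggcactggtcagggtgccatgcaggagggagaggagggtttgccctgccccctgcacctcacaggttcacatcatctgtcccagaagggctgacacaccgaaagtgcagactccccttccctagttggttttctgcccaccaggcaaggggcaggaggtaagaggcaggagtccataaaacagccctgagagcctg
The capitals in Ucp1 are AGGTCA, a single hexamer of the kind that PPAR/RXR and other nuclear receptors bind, with its first base at -14 from the start. Those in Plin1 are 2 matches to TTGCNNAA, a C/EBP site, with first bases at -187 and -58. Cfd held no match, and neither did Pck1 or Adipoq. The 10 starts include 3 of Pparg and 2 of Cidec. AGGTCA was found at 3 of the 10 starts, those of Ucp1 and 2 of Pparg, against 16.3% of all 32851 promoters in the table, and TTGCNNAA at 3 of 10, those of Plin1 and 1 each of Cidec and Pparg, against 10.8%. TATAAA was found at 1 of the 10 starts, against 13.6%. The direct repeat of PPAR/RXR (AGGTCA, any base, AGGTCA, which contains the single hexamer), the palindrome of the glucocorticoid receptor (GNACA, any 3 bases, TGTNC) and the cyclic AMP element TGACGTCA were found at 0 of 10, against 0.0396%, 0.475% and 1.79%. These are matches of letters within this window and say nothing on binding.

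All levels below are the authors' log2 values after normalization between libraries, and a difference is cardioGRKO minus floxed on that scale unless another is named. A difference is called when its p, from 1 linear model over the 12 libraries fitted with limma and adjusted by Benjamini-Hochberg over 14721 genes, is under 0.05. On this scale differences of genes with few reads appear compressed. Kdm5d, a Y-linked gene, stood at 8.29 to 8.46 in males and still at 6.82 to 6.95 in the libraries labelled female. Folds of low genes may thus be understated, by an amount that was not tested. Nor does passing the filter, or a level in that range, by itself show expression. Adipoq, Cidec and Plin1 reached at most 6.92, 6.70 and 6.16 in any library. Sequencing depth cannot be read from these values, and their precision is the spread between libraries. The cardiac myosin Myh6, the defining marker of heart muscle, stood at 19.34 to 19.51 in all 12 libraries. Nr3c1, the deleted gene, was at 10.85 ± 0.027 in male cardioGRKO and 11.41 ± 0.015 in male floxed libraries (SD, n = 3 each), but in those labelled female cardioGRKO at 10.88 ± 0.029 and in those labelled female floxed at 10.74 ± 0.035. The direction between the libraries labelled female goes against the labels, so every direction given below for the libraries labelled female is that of their labels. Were the female labels exchanged, each difference between cardioGRKO and floxed in females would keep its size and change its sign, and values that set females against males would change as given beside them. Nr3c1 would then be at 10.88 in the female libraries called floxed, still below the 11.41 of male floxed libraries. By the labels, some genes changed alike in both sexes. Among the markers read below, Casq1 differed by 1.37 in males and 0.70 in females, and Tnnt2 by -0.21 and -0.26, all called. With exchanged female labels both genes would go in opposite directions in the sexes. By the labels 8.57% of all genes tested were called in opposite directions. Whether the labels are exchanged was not tested. A pair of those labelled female floxed also stand apart by transcripts of stratified epithelium, with Krt12, a keratin of the cornea, at 13.13 and 13.98 in replicates 1 and 2 and at 8.35 in replicate 3, against 7.16 to 8.49 in the other 9 libraries.

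In the libraries labelled female cardioGRKO all 10 genes rose, and in male cardioGRKO hearts 7 fell and 1, Cfd, rose. The female rises ran from 1.09-fold for Pparg to 3.17-fold for Ucp1, with a median difference of 0.46 over the 10 genes, against -0.00037 over all genes tested. In males the median difference was -0.13, against -0.0021 over all genes tested. Of all 14721 genes tested, 29.3% were called in the female comparison (15.2% higher, 14% lower) and 27.4% in the male one (12.8% higher, 14.6% lower). The libraries of the groups did not overlap for any of the 10 genes in females and for 8 of 10 in males, where 40.7% and 41.4% of all genes tested did not overlap. A call lower in males and higher in females was made for 7 of the 10 genes and for 4.92% of all genes tested, while 8.57% of all genes tested were called in opposite directions either way. With exchanged female labels the same 7 genes, and the same 4.92% of all genes tested, would be lower in both sexes, and Cfd would be higher in males and lower in females.

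**Figure D1:**
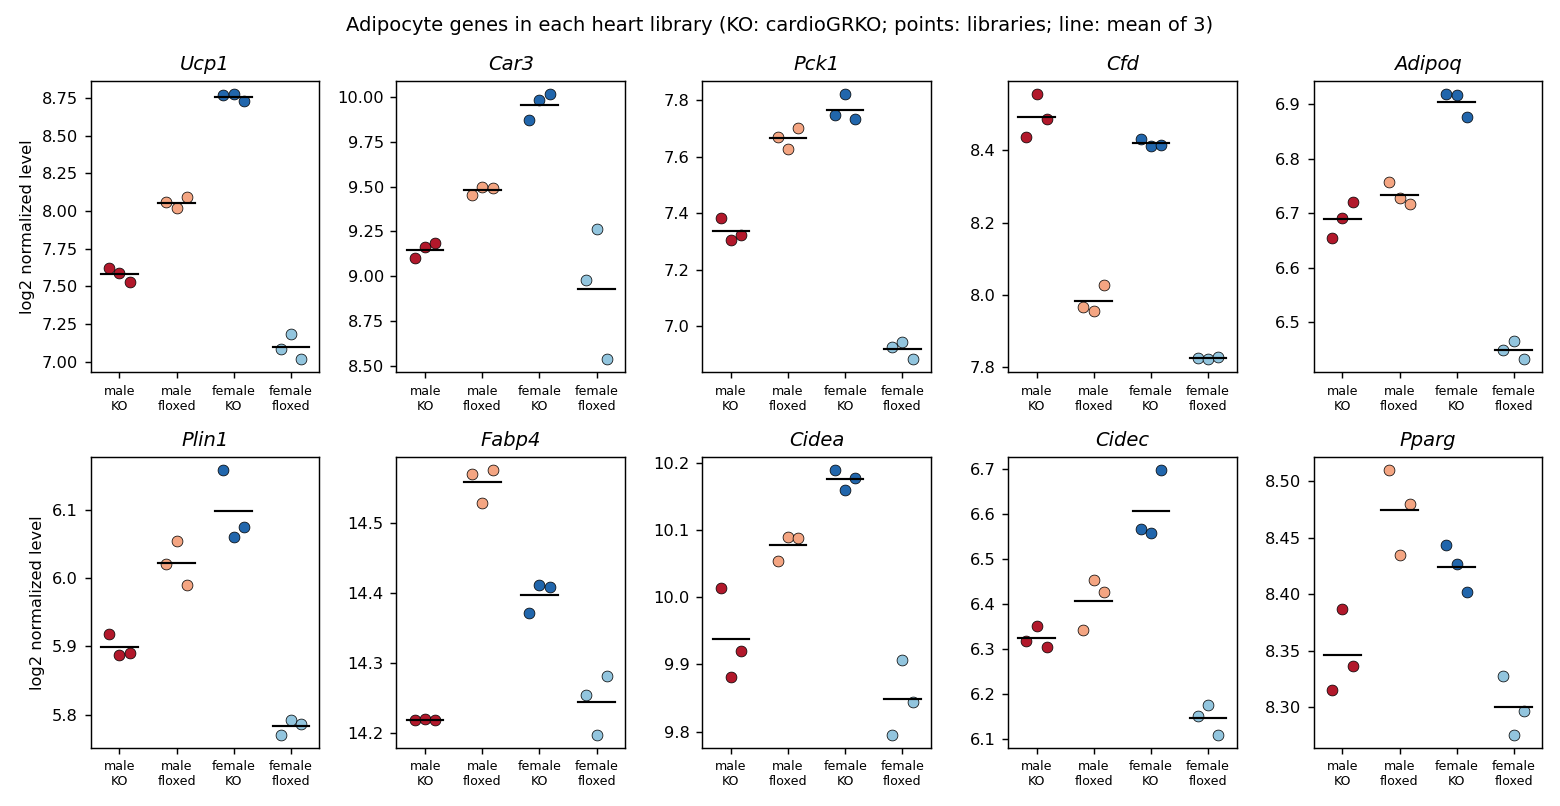
Level of each of the 10 adipocyte genes (vertical axes, authors' log2 normalized values, each on its own range) in male cardioGRKO, male floxed, and the libraries labelled female cardioGRKO and female floxed (horizontal axis; KO is cardioGRKO); points are libraries 1 to 3 of a group and lines their mean. Ucp1 is highest in the 3 libraries labelled female cardioGRKO, at 8.73 to 8.78, and lowest in those labelled female floxed, at 7.02 to 7.18, while Cfd is high in both cardioGRKO groups.

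Ucp1 encodes uncoupling protein 1, which lets protons leak across the inner mitochondrial membrane of brown fat cells to make heat. It stood at 7.62, 7.59 and 7.53 in male cardioGRKO libraries, against 8.06, 8.02 and 8.09 in male floxed libraries. The 3 male cardioGRKO libraries lay below all 3 floxed ones, a difference of -0.48 (SE 0.038, adjusted p = 5.9e-08, limma), or 0.719-fold (95% interval 0.680 to 0.760). The libraries labelled female cardioGRKO had 8.77, 8.78 and 8.73, against 7.08, 7.18 and 7.02 in those labelled female floxed. Here the cardioGRKO libraries lay above all floxed ones, by 1.66 (SE 0.038, adjusted p = 1.1e-14), or 3.17-fold (3.00 to 3.35). By the labels this was the second largest rise of the 14721 genes in that comparison, and with exchanged female labels it would be the second largest fall, in the direction of the male change. The female change minus the male change was 2.14 (SE 0.054, adjusted p = 1.8e-14), rank 1 of the rises, and with exchanged female labels it was -1.19 (SE 0.054, adjusted p = 1.2e-10), rank 8 of the falls. The 4 groups did not overlap for Ucp1, which ran from the libraries labelled female cardioGRKO through male floxed and male cardioGRKO to those labelled female floxed.

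Cidea encodes a protein of the lipid droplet surface that is abundant in brown fat. It stood at 10.01, 9.88 and 9.92 in male cardioGRKO libraries, against 10.05, 10.09 and 10.09 in male floxed libraries, 0.908-fold (0.865 to 0.954, adjusted p = 0.0044, limma). It was 10.19, 10.16 and 10.18 in the libraries labelled female cardioGRKO, against 9.80, 9.91 and 9.85 in those labelled female floxed, 1.25-fold (1.19 to 1.32, adjusted p = 1.6e-06). Neither pair overlapped, though the lowest male cardioGRKO library lay below the highest labelled female floxed. The order of the 4 groups was that of Ucp1, at a smaller span.

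Car3 encodes carbonic anhydrase 3, one of the most abundant proteins of white fat cells and of slow skeletal muscle. Its values were 9.10, 9.16 and 9.18 in male cardioGRKO libraries, against 9.45, 9.50 and 9.49 in male floxed libraries. The male groups did not overlap, with a difference of -0.33 (SE 0.11, adjusted p = 0.035, limma). This SE rests on a spread shared by all groups, and that of the libraries labelled female floxed was wide, at 8.98, 9.27 and 8.54, against 9.87, 9.98 and 10.01 in those labelled female cardioGRKO. The female difference was 1.03 (SE 0.11, adjusted p = 3.3e-06), or 2.04-fold (1.73 to 2.40), by the labels the fourth largest rise of all genes and with exchanged female labels a fall to 0.491-fold. The male call was lost without any 1 of the 6 male libraries (adjusted p = 0.067 to 0.11, differences of -0.31 to -0.35), while with the 6 male libraries alone the adjusted p was 4.0e-10.

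Within the libraries labelled female floxed, Car3 was highest in replicate 2, then replicate 1, then replicate 3, the order of Krt12. Ucp1, at 7.18, 7.08 and 7.02, had the same order over a narrower range, as had Pck1, Adipoq and Cidec. Fabp4 and Cfd had the reverse order, and Plin1, Cidea and Pparg had other orders. Without replicates 1 and 2 labelled female floxed, Car3 differed by 1.41 and Ucp1 by 1.74 in females. Only replicate 3 is then left in that group. It is the lowest of the group for both genes, so both differences had to be larger. The part of the epithelial transcripts in the Car3 spread was not tested.

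Pck1 encodes the cytosolic phosphoenolpyruvate carboxykinase, which fat cells use to make the glycerol backbone of triglycerides. It stood at 7.38, 7.30 and 7.32 in male cardioGRKO libraries, against 7.67, 7.63 and 7.70 in male floxed libraries. All 3 male cardioGRKO libraries lay below the floxed ones, by -0.33 (SE 0.032, adjusted p = 5.1e-07, limma), or 0.795-fold (0.759 to 0.833). It was 7.75, 7.82 and 7.73 in the libraries labelled female cardioGRKO, against 6.93, 6.94 and 6.88 in those labelled female floxed, and the groups lay well apart. The female difference was 0.85 (SE 0.032, adjusted p = 7.7e-12), or 1.80-fold (1.72 to 1.89), by the labels the fifth largest rise of all genes and with exchanged female labels a fall to 0.555-fold.

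The secreted products of fat cells behaved unlike each other in males. Cfd encodes adipsin, the complement factor D that fat cells release. It stood at 8.44, 8.55 and 8.49 in male cardioGRKO libraries, against 7.97, 7.96 and 8.03 in male floxed libraries, and in the libraries labelled female cardioGRKO at 8.43, 8.41 and 8.41, against 7.83, 7.82 and 7.83 in those labelled female floxed. Both cardioGRKO groups lay above both floxed groups without overlap. The difference was 0.51 (SE 0.031, adjusted p = 1.8e-09, limma) in males and 0.59 (SE 0.031, adjusted p = 5.6e-10) in females, or 1.42-fold (1.36 to 1.49) and 1.51-fold (1.44 to 1.58). The female and male changes of Cfd differed by 0.083 (95% interval -0.0084 to 0.18, adjusted p = 0.16), by the labels the single case among the 10 genes in which that difference was not called. With exchanged female labels it was -1.10 (SE 0.043, adjusted p = 2.1e-11), rank 9 of the falls.

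Adipoq encodes adiponectin, a hormone made almost solely by fat cells. It was 6.66, 6.69 and 6.72 in male cardioGRKO libraries, against 6.76, 6.73 and 6.72 in male floxed libraries. These male groups overlapped, and their difference of -0.045 was not called (95% interval -0.096 to 0.0069, adjusted p = 0.20, limma), nor was the -0.028 left without male cardioGRKO replicate 1 (adjusted p = 0.52). Its values were 6.92, 6.92 and 6.88 in the libraries labelled female cardioGRKO, against 6.45, 6.47 and 6.43 in those labelled female floxed. The female groups did not overlap and differed by 0.45 (SE 0.024, adjusted p = 9.0e-10), or 1.37-fold (1.32 to 1.42).

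The lipid droplet genes Plin1 and Cidec rose in the libraries labelled female cardioGRKO, and in males Plin1 fell. Plin1 encodes perilipin 1, the droplet coat that governs lipolysis. It stood at 5.92, 5.89 and 5.89 in male cardioGRKO libraries, against 6.02, 6.05 and 5.99 in male floxed libraries, and libraries labelled female cardioGRKO had 6.16, 6.06 and 6.07, against 5.77, 5.79 and 5.79 in those labelled female floxed. Neither sex showed overlap, with 0.918-fold (0.885 to 0.954, adjusted p = 0.0015, limma) in males and 1.24-fold (log2 SE 0.025, adjusted p = 1.3e-07) in females. Cidec encodes a protein that fuses droplets into the single large one of white fat cells. It was 6.32, 6.35 and 6.30 in male cardioGRKO libraries, against 6.34, 6.45 and 6.43 in male floxed libraries, which overlapped. The male difference of -0.084 was not called (95% interval -0.16 to -0.0074, adjusted p = 0.10), though it was with the 6 male libraries alone (adjusted p = 0.019) and without male floxed replicate 1 (-0.12, adjusted p = 0.032). Cidec was 6.57, 6.56 and 6.70 in the libraries labelled female cardioGRKO, against 6.15, 6.18 and 6.11 in those labelled female floxed, 1.38-fold higher (1.31 to 1.45, adjusted p = 7.6e-08).

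Fabp4 and Pparg, which endothelium shares with fat, had the smallest female rises of the 10 genes. Fabp4 encodes the fatty acid binding protein of fat cells. It stood at 14.22 in all 3 male cardioGRKO libraries, against 14.57, 14.53 and 14.58 in male floxed libraries, and libraries labelled female cardioGRKO had 14.37, 14.41 and 14.41, against 14.26, 14.20 and 14.28 in those labelled female floxed. The fall in males, -0.34 (SE 0.020, adjusted p = 1.4e-09, limma), was larger in size than the rise in females, 0.15 (SE 0.020, adjusted p = 2.7e-05), which was 0.12 without female floxed 1 and 2 and 0.082 after quantile normalization (adjusted p = 0.0027). Pparg encodes PPARγ. It was 8.32, 8.39 and 8.34 in male cardioGRKO libraries, against 8.51, 8.44 and 8.48 in male floxed libraries, and 8.44, 8.43 and 8.40 in the libraries labelled female cardioGRKO, against 8.33, 8.28 and 8.30 in those labelled female floxed. Pparg fell to 0.914 times the floxed level in males (0.876 to 0.954, adjusted p = 0.0028) and rose to 1.09 times in females (1.04 to 1.14, adjusted p = 0.0043).

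**Figure D2:**
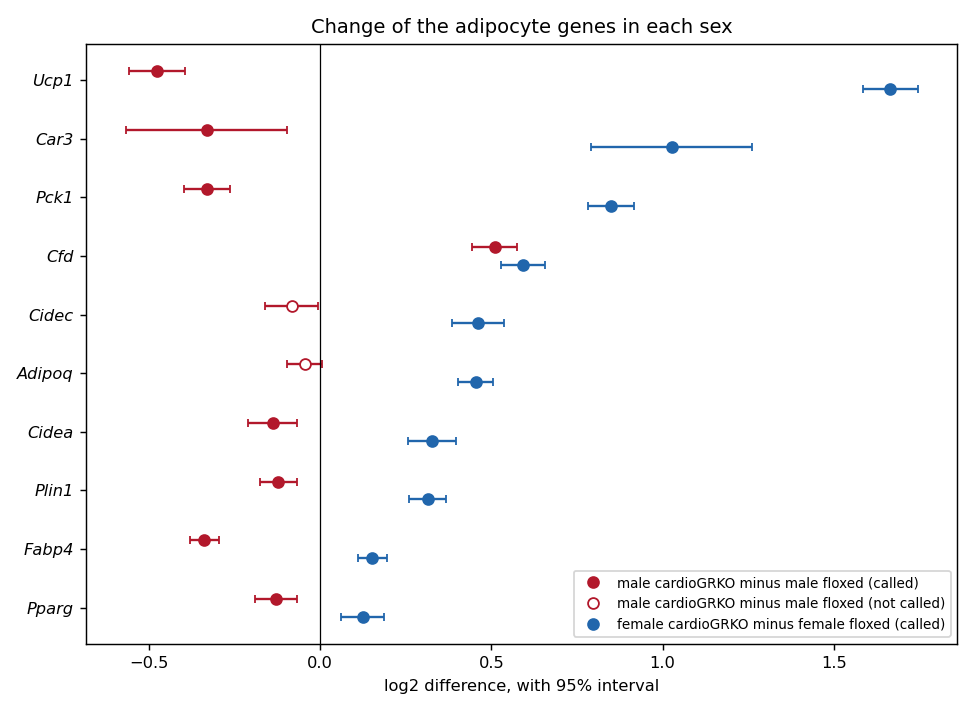
Log2 difference (horizontal axis) of each adipocyte gene in males and in the libraries labelled female, with 95% intervals from the limma fit; filled points were called and open points were not. Female differences lie between 0.12 for Pparg and 1.66 for Ucp1, and male differences between -0.48 for Ucp1 and 0.51 for Cfd.

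For 7 of the 10 genes the levels kept the order of Ucp1 over the 4 groups, from the libraries labelled female cardioGRKO, highest, through male floxed and male cardioGRKO to those labelled female floxed, lowest. Neighbouring groups in that order overlapped for Car3 and Cidea (male cardioGRKO with female floxed) and for Adipoq and Cidec (both male groups), and did not for Ucp1, Pck1 and Plin1. Pparg and Fabp4 were highest in male floxed libraries. The libraries labelled female floxed were the lowest group for 9 of the 10 genes, Fabp4 being the exception, with male cardioGRKO below but overlapping. Cfd was highest in male cardioGRKO and lowest in the libraries labelled female floxed. How many of all genes tested show these orders, or groups apart in this way, was not counted. These counts therefore do not show that the order is particular to the 10 genes.

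Compared by sex within a genotype, all 10 genes were lower in the libraries labelled female floxed than in male floxed ones, where 44.2% of all genes tested were called, 22.7% lower and 21.5% higher. The median of the 10 differences, female minus male, was -0.27, and they ran from -0.96 for Ucp1 (adjusted p = 4.6e-12, limma) to -0.16 for Cfd (adjusted p = 0.00054). In cardioGRKO hearts 8 of the 10 were higher in the libraries labelled female, where 24.2% of all genes tested were called, 11.9% higher, with Ucp1 at 1.18 (adjusted p = 8.2e-13) and Car3 at 0.81 (adjusted p = 5.4e-05). Cfd at -0.074 (adjusted p = 0.092) and Pparg at 0.078 (adjusted p = 0.063) were not called. The female and the male change differed for 9 of the 10 genes, each time with the female change above the male one, where 31.3% of all genes tested were called, 17% in that direction and 14.3% in the other. With exchanged female labels 9 of the 10 also differed, but 8 with the female change below the male one and Fabp4 above it, at 0.19 (adjusted p = 0.00013), where 24.6% of all genes tested were called, 12.2% lower and 12.4% higher. Pparg, at 0.0052 (95% interval -0.082 to 0.092, adjusted p = 0.95), was then the gene not called. The sex comparisons also turn with the labels. In female cardioGRKO libraries 7 of the 10 genes would then be lower than in male cardioGRKO ones, with 0 higher. Of all genes tested 35.2% would be called there, 18.3% lower and 16.9% higher. In female floxed libraries 8 genes would be higher and 1 lower than in male floxed ones. There 31% of all genes tested would be called, 14.4% higher and 16.6% lower. These sex comparisons use the same libraries as the comparisons of genotype. Nr3c1 was also lower in the libraries labelled female floxed than in male floxed ones, as given above.

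Genes whose profile over the 12 libraries was nearest to that of Ucp1 were sought after each profile had been centred and divided by its own SD. The root mean square difference from Ucp1 was 0.126 for Thrsp, a regulator of fatty acid synthesis, 0.194 for Otop1, a proton channel of brown fat, 0.203 for Acaca, the acetyl-CoA carboxylase, 0.210 for Tuba8, a tubulin, and 0.225 for Prkar2b, a regulatory subunit of protein kinase A, against a median of 1.41 over all genes tested; this compares the shape of profiles, not the size of changes. Among the other adipocyte genes Cidec was nearest at 0.283, rank 6 of all, followed by Cidea at 0.296, Adipoq at 0.297 and Plin1 at 0.298, while Cfd at 0.986 and Fabp4 at 0.911 were farthest. The profile of Adipoq was approached most closely by Fasn, the fatty acid synthase, at 0.169, then by Pcsk6, a proprotein convertase, and Ctsd, a lysosomal protease, at 0.206 each, Synpo, an actin-binding protein, at 0.227, and Lgals12, a galectin of fat cells, at 0.239.

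Other genes of fat cells were read from lists, here and in the paragraphs that follow. Beside their counts, 15.2% of all genes tested were called higher and 14% lower in females, and 12.8% higher and 14.6% lower in males. Of 19 further adipocyte genes tested, 10 rose and 1 fell in the libraries labelled female cardioGRKO (median 0.073), and 3 rose and 7 fell in male cardioGRKO hearts (median -0.038). Gpd1, which makes glycerol 3-phosphate, differed by 0.56 in females (adjusted p = 1.5e-11, limma) and -0.062 in males (adjusted p = 0.045). Lpl, lipoprotein lipase, differed by 0.34 and -0.37, and Lipe, hormone-sensitive lipase, by 0.18 and -0.30. Npr3, the clearance receptor of natriuretic peptides, went the other way, at -0.50 in females and 0.75 in males. Lep, which encodes leptin and marks white fat, did not pass the filter and lay at 1.49 to 1.52 in all libraries.

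Of 16 tested genes of brown fat, several of which heart muscle also uses, 8 rose and 3 fell in the libraries labelled female cardioGRKO (median 0.086), and 3 rose and 9 fell in males (median -0.068). Kcnk3, a potassium channel, differed by 0.19 in females and -0.22 in males, and Otop1 by 0.14 and -0.054, all 4 called (limma). Cox7a1, a subunit of cytochrome c oxidase in muscle and brown fat, fell in both, by 0.047 and 0.30, and Prdm16, a regulator of brown fat identity, fell by 0.34 in males with -0.026 in females (adjusted p = 0.47). The brown fat transcription factors Zic1 and Lhx8 did not pass the filter and stayed below 0 on the log2 scale in all libraries.

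Fatty acid synthesis feeds both kinds of fat cell. Of 19 such genes 10 rose and 3 fell in the libraries labelled female cardioGRKO, and in males 2 rose and 6 fell. The female differences were 1.84 for Scd1, the stearoyl-CoA desaturase, 1.47 for Fasn, 0.66 for Thrsp and 0.47 for Acaca, against -0.29, 0.031, -0.13 and -0.054 in males, of which Scd1 and Thrsp were called (limma). Of 13 lipid droplet genes 8 rose and 3 fell in females and 1 rose and 5 fell in males. Plin5, the perilipin of oxidative tissue, differed by 0.22 and -0.32, Mgll, which splits monoglycerides, by 0.26 and -0.23 and Plin3 by 0.13 and -0.31, all called, and G0s2, an inhibitor of lipolysis, by 0.036 (adjusted p = 0.44) and -0.34 (adjusted p = 4.9e-07). Of 7 genes of fat cell precursors 3 rose and 2 fell in females, and 2 rose and 3 fell in males. Ly6a differed by 0.080 and -0.42 and Cd34 by 0.071 and -0.17, and Wisp2 by -0.16 and 0.39 and Dpp4 by -0.16 and 0.14, all called.

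**Figure D3:**
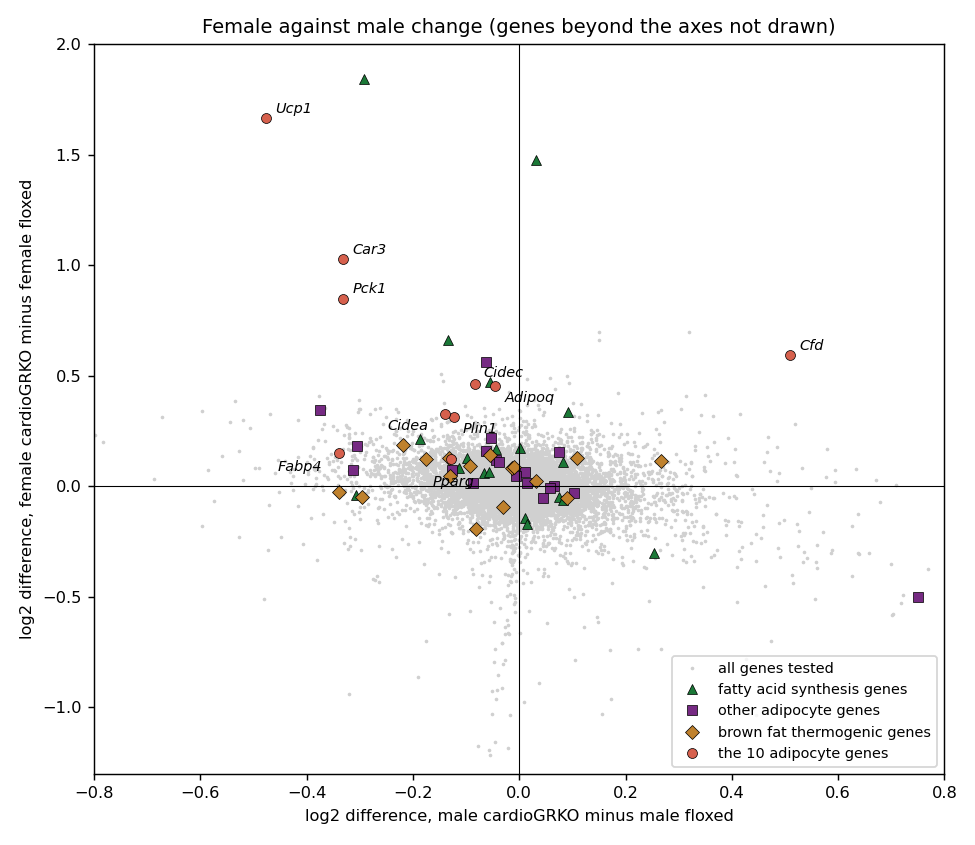
Female difference (vertical axis, libraries labelled female cardioGRKO minus female floxed) against male difference (horizontal axis, male cardioGRKO minus male floxed), in log2 units, for all genes tested (grey), 3 lists and the 10 adipocyte genes (named). All 10 lie above 0 on the female axis, and on the male axis all but Cfd lie to the left of 0; Cfd is at 0.59 (female) and 0.51 (male).

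Markers of other cells were also read, here and in the next paragraph. Of all genes tested, 15.2% were called higher and 14% lower in females, and 12.8% higher and 14.6% lower in males. Endothelial markers rose in 5 and fell in 1 of 7 cases in the libraries labelled female cardioGRKO (median 0.11) and fell in 7 of 7 in males (median -0.16), the directions of Fabp4 and Pparg. Their summed linear level was 43310 to 43780 in male cardioGRKO and 48350 to 48720 in male floxed libraries, and 44370 to 44980 in those labelled female cardioGRKO and 40630 to 42050 in those labelled female floxed. Cardiomyocyte markers fell in 9 of 11 cases with 0 higher in males (median -0.19), and 4 rose and 1 fell in females (median -0.0052). Mesothelial markers, of the layer next to epicardial fat, went against the adipocyte genes, with 5 of 8 higher and 0 lower in males and 0 higher and 6 lower in females. Among those 6, Upk1b and Krt19 had wide spreads in the libraries labelled female floxed (SD 0.69 and 0.13). The SD there was 0.022 to 0.054 for Msln, Upk3b, Lrrn4 and Krt18. Whether the epithelial transcripts of that group bear on Upk1b and Krt19 was not tested. Skeletal muscle markers, which bear on Car3, rose in 5 and fell in 1 of 8 cases in males and rose in 6 with 0 lower in females. The list holds genes at a high level in all 12 libraries, such as Ckm at 16.1 to 16.3 and Acta1 at 13.2 to 13.8. Myh1, Myh2 and Myh4, the fast myosins, did not pass the filter, nor did Tnnc2, and Pvalb was not called in either sex. Fast myosins give no reading of slow skeletal muscle, the kind in which Car3 is abundant. The part of these cells in the adipocyte results was not tested.

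Stratified epithelial markers were lower in 10 of 11 cases and higher in 0 for those labelled female cardioGRKO, and lower in 1 with 0 higher in males. Their summed linear level was 21100 to 21560 in male cardioGRKO and 23290 to 24400 in male floxed libraries, and 19930 to 20200 in those labelled female cardioGRKO and 19830 to 54150 in those labelled female floxed. The 1 male call was Dsp, at -0.16 (adjusted p = 2.4e-06, limma). Dsp stood at 14.18 to 14.51 in all 12 libraries, while no other marker of the list passed 7.91 in males. The male sums are thus mostly Dsp. Without female floxed 1 and 2 only 1 library is left in that group. The female differences of the 10 adipocyte genes then ran from 0.12 for Fabp4 to 1.74 for Ucp1. Thymus and T cell markers were called in 1 of 3 cases tested, higher in females, and 0 in males. Macrophage markers were higher in 3 and lower in 1 of 7 cases in females and higher in 1 with 0 lower in males, and smooth muscle markers were lower in 4 of 5 with 0 higher in females and lower in 3 with 1 higher in males. Red cell markers were higher in 3 of 3 in females and in 1 of 3 with 0 lower in males. None of the markers of these lists was listed at 0 in all libraries except 6 globin genes.

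**Figure D4:**
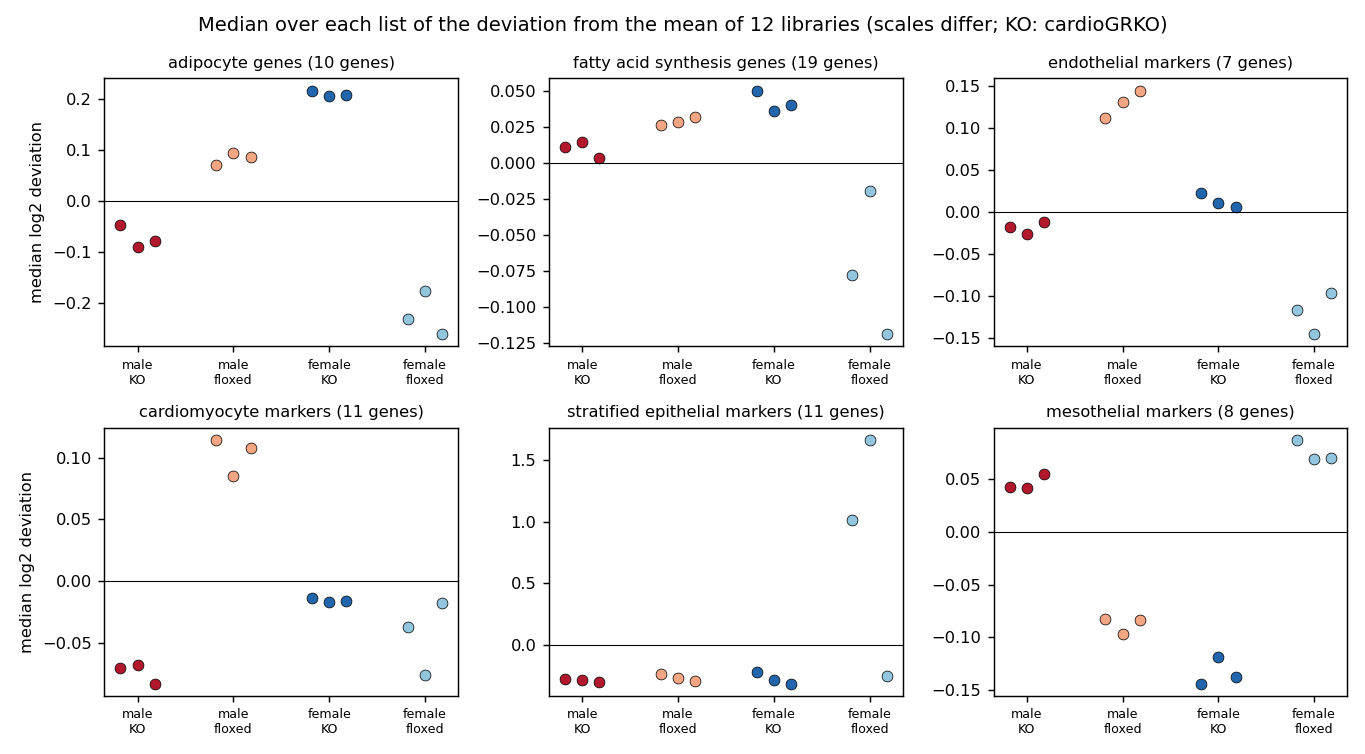
Median over each list of the deviation of its genes from their mean over 12 libraries (vertical axes, log2 units, each on its own range) in every library of the 4 groups (horizontal axis; KO is cardioGRKO). The adipocyte genes stand at 0.20 to 0.22 in the libraries labelled female cardioGRKO and at -0.26 to -0.18 in those labelled female floxed, the epithelial markers at 1.02 and 1.66 in 2 of those labelled female floxed, and the mesothelial markers run opposite to the adipocyte genes.

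**Figure D5:**
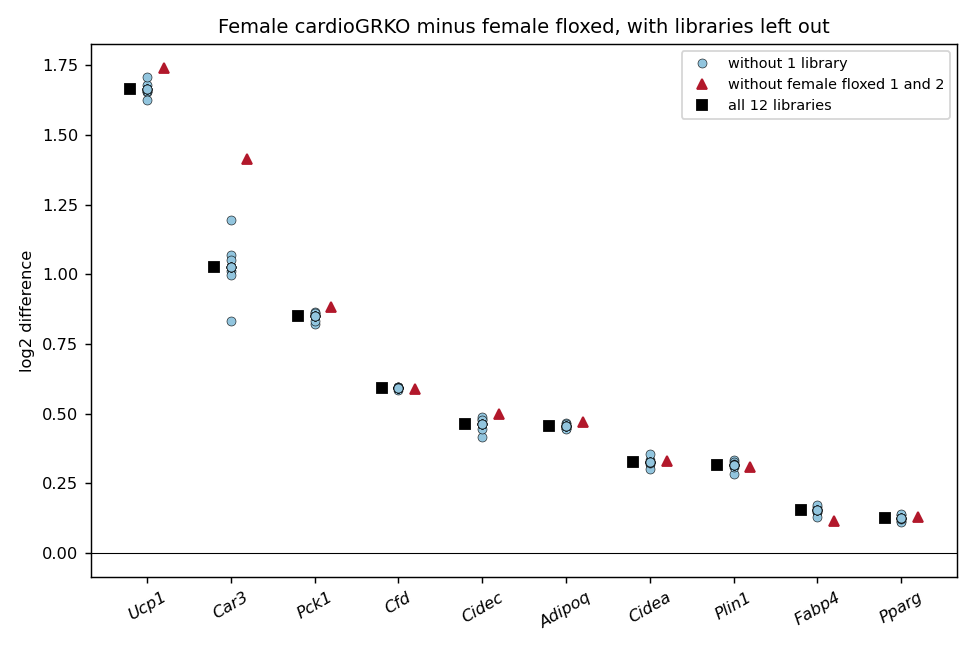
Female difference of each adipocyte gene (vertical axis, log2, libraries labelled female cardioGRKO minus female floxed) with all 12 libraries (squares), without 1 library at a time (circles) and without female floxed 1 and 2 (triangles, 1 library left in that group). All values lie above 0, and Car3 moves most, between 0.83 and 1.41.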

How the data were processed

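RNA of mouse hearts was measured in 12 libraries. Per the labels' protocols, TruSeq V2 libraries of Trizol-extracted, column-purified RNA were sequenced on a NextSeq500. The deposited values are log2 values, 1 per gene and library. Per the submitters' processing notes, the tools were Trim Galore, TopHat2, HTSeq and DESeq2 with build mm9, and no versions are given there. A regularized logarithm was inferred from values down to -2.2 and is not stated by the file headers. The use of strand in counting is not given in the sources used here.

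A gene was tested where 3 or more of the 12 libraries reached log2 of 10. In limma 3.58.1 (R 4.3.3), a linear model with a mean for each group, leaving 8 residual degrees of freedom, was fitted with moderated variances that follow a trend on the mean level, and two-sided p was adjusted over all genes tested. The genes, the lists and the tests were chosen with earlier results of these data known. For the fat and lipid lists, the genes named with their changes are up to 4 called ones with the smallest p in either sex. The lists of other cells are given by counts. Further genes of these lists are named by no set rule, for their level, for failing the filter, or as checks or limits. The script was tested on simulated data. Alternatives covered filters, scaling, moderation, library weights, a minimum fold, fits of 6 libraries, a replicate block, left-out libraries and, added after the data were seen, exchanged labels of the female libraries. The labels give no batch. Promoter sequences are on another build than the authors' mm9, and no coordinates were carried between them.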

Additional observations from a re-analysis of the deposited data

Results flagged for a closer look

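By the labels, the effect of genotype differed between the sexes, in a test of the difference itself, for 9 of the 10 adipocyte genes (limma, adjusted over all genes tested). These differences depend on the labels of the female libraries, which Nr3c1 goes against. The female change minus the male change was 2.14 for Ucp1, 1.36 for Car3, 1.18 for Pck1, 0.55 for Cidec, 0.50 for Adipoq, 0.49 for Fabp4, 0.46 for Cidea, 0.44 for Plin1 and 0.25 for Pparg. With exchanged female labels the values were -1.19 for Ucp1, -1.10 for Cfd, -0.70 for Car3, -0.52 for Pck1, -0.41 for Adipoq, -0.38 for Cidec, -0.19 for Plin1, -0.19 for Cidea, 0.19 for Fabp4 and 0.0052 for Pparg, all called but Pparg. Adipoq and Cidec are 2 cases in which the male change itself was not called.

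Over the whole lists the difference was called for 14 of 19 other adipocyte genes, 12 of 16 brown fat genes, 17 of 19 genes of fatty acid synthesis, 9 of 13 lipid droplet genes and 5 of 7 precursor genes, against 31.3% of all genes tested. In that order, 10, 9, 12, 8 and 3 of those called had the female change above the male one. For 4, 3, 5, 1 and 2 it was below. Of all genes tested 17% were called above and 14.3% below. The 20 genes given here were chosen for a small p in either sex, so their own count supports nothing; with exchanged female labels 16 of them were called, 10 with the same sign and 6 with the other. By the labels, the female change minus the male change among other adipocyte genes was 0.72 for Lpl, 0.62 for Gpd1, 0.49 for Lipe and -1.25 for Npr3. Among brown fat genes it was 0.41 for Kcnk3, 0.31 for Prdm16, 0.25 for Cox7a1 and 0.19 for Otop1. Genes of fatty acid synthesis gave 2.13 for Scd1, 1.44 for Fasn, 0.80 for Thrsp and 0.52 for Acaca. Lipid droplet genes gave 0.54 for Plin5, 0.49 for Mgll, 0.44 for Plin3 and 0.37 for G0s2. Precursor genes gave 0.50 for Ly6a, 0.24 for Cd34, -0.30 for Dpp4 and -0.55 for Wisp2.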

How the results depend on the processing

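Exchanging the female labels, an alternative added after the data were seen because of Nr3c1, turned Ucp1, Car3, Pck1, Cfd, Adipoq, Plin1, Fabp4, Cidea, Cidec and Pparg to -1.66, -1.03, -0.85, -0.59, -0.45, -0.31, -0.15, -0.33, -0.46 and -0.12 in females. It turned the difference of the female and the male change of Ucp1, Car3, Pck1, Cfd, Adipoq, Plin1, Cidea and Cidec to -1.19, -0.70, -0.52, -1.10, -0.41, -0.19, -0.19 and -0.38, and left Pparg at 0.0052, not called. Between the cardioGRKO groups, female minus male, Ucp1, Car3, Pck1, Adipoq, Plin1, Cidea, Cidec and Pparg turned to -0.49, -0.22, -0.42, -0.24, -0.12, -0.089, -0.18 and -0.046. Between the floxed groups Ucp1, Car3, Pck1, Cfd, Adipoq, Plin1, Cidea and Cidec turned to 0.70, 0.47, 0.099, 0.44, 0.17, 0.076, 0.098 and 0.20. No other alternative reversed the direction of any of the 10 genes in the 5 comparisons. Against a minimum fold of 1.2, 2 of the 10 genes were called in males, 6 in females, 8 in the difference of the female and the male change, 3 between the cardioGRKO groups and 2 between the floxed groups, in place of 8, 10, 9, 8 and 10, and 184, 93, 420, 117 and 386 of all genes. Without 1 library at a time, 7 to 9 genes were called in males, 10 in females, 9 to 10 in the difference of changes, 8 to 9 between the cardioGRKO and 10 between the floxed groups. Of all 14721 genes tested, 3391 to 4269, 3393 to 4272, 4133 to 4907, 2735 to 3863 and 5714 to 6491 were called in these comparisons. Without female floxed 1 and 2, which leaves 1 library in that group, Ucp1 differed by 1.74 and Car3 by 1.41 in females. Car3 in males was also lost without the variance trend and with robust moderation (adjusted p = 0.063 and 0.16, limma). With the replicate number as a block 8, 10, 9, 8 and 10 genes were called, as without it, and 3974, 4200, 4560, 3417 and 6418 of all genes. The numbers were not taken as pairs, since deviations of same-numbered cardioGRKO and floxed libraries correlated at -0.11 to 0.15. Depth is unknown, so the precision at low levels rests on the spread between libraries, shared by all groups and moderated over all genes tested.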
